A study of Mus musculus with 11 samples.

Results

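The genes described here encode the proteasome, the protease complex that degrades ubiquitin-tagged proteins, together with its activators and its assembly chaperones. They were taken as every gene whose symbol is Psma, Psmb, Psmc, Psmd, Psme, Psmf or Psmg followed by a number, except the immunoproteasome subunits Psmb8, Psmb9 and Psmb10, which gave 45 of the 24064 genes in the scatter-gated libraries. The members comprised 16 genes of the 20S core, 6 ATPases and 11 other subunits of the 19S regulatory particle, 5 activators including the regulator PI31, and 7 assembly chaperones. In haematopoietic stem cells (HSCs) with a high forward scatter area, 28 of the 43 members that could be tested were higher than in HSCs with a low one, 1 was lower and 14 did not pass the test. Of all tested genes, 15.6% were higher and 11.7% lower. The difference was unequal over the classes, with a median log2 difference of 1.08 in the 20S core and 0.44 in the non-ATPase subunits of the regulatory particle, and differences between classes are given as descriptions, with no test. Removal of a trend over transcript length and GC content gave 14 members higher, against 9.37% of genes. Scaling each library to its total gave 18, against 9.21% of genes.

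All libraries came from wild-type C57BL/6 mice, from liver at postnatal day 0, with no genetic change or treatment named for any group. Liver cells were stained and sorted as lineage-negative, Sca1+, cKit+, CD150+ and CD48-, a surface profile used for HSCs. From 100 to 200 sorted cells each, libraries were prepared with Smart-seq2, which copies whole transcripts from very little RNA. Cells of high forward scatter area (FSC-A High) gave 4 libraries, cells of low forward scatter area (FSC-A Low) gave 3, and HSCs with no scatter gate named in their labels (WT HSC) gave 4. Forward scatter area is a flow cytometry signal commonly read as a measure of cell size. Whether replicates were separate animals is not stated in the labels, and the p-values therefore rest on a spread between samples that may be technical.

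The 20S core is a barrel of stacked rings, in which alpha subunits (Psma genes) form the gate and beta subunits (Psmb genes) line the chamber and carry the proteolytic sites. The 19S particle caps the barrel, binds and deubiquitinates the substrate, and unfolds it with a ring of ATPases (Psmc genes), while dedicated chaperones build both parts and leave the finished complex. Control of protein quality, in which the proteasome takes part, is known to matter for the upkeep of HSCs. Many proteasome genes are known to be induced together by the transcription factor encoded by Nfe2l1, which binds antioxidant response elements.

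Promoter sequences of the members that the results turn on are shown here because many members were called higher and 1 was called lower. RefSeq windows (build GRCm38.p6) from 250 bases before to 50 bases after a start site were found for 37 of the 45 members, 40 windows in all. The antioxidant response core TGACNNNGC, searched on both strands like the other motifs, was in 6 of the 40 windows (15.0%, against 12.4% of all 32851 windows), those of Psmb5, Psmb6, Psmc6, Psmd12, Psmd9 and Psme4. It is in capitals in the windows of the catalytic genes Psmb5 (chr14:54617946-54618245, minus strand) and Psmb6 (chr11:70525107-70525406, plus strand).
Psmb5: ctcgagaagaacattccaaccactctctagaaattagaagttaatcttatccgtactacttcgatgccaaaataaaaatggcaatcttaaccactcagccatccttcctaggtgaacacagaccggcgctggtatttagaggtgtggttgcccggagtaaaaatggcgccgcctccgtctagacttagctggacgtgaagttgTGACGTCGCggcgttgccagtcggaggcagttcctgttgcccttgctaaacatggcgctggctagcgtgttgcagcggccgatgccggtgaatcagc
Psmb6: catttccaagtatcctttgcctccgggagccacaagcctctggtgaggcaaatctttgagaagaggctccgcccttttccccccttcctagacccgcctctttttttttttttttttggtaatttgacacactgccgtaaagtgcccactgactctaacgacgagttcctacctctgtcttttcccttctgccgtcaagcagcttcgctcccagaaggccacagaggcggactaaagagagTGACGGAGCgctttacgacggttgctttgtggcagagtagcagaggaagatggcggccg

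The CCAAT box CCAAT was in 13 of 40 member windows (32.5%, against 37.4% of all windows). By gene, 7 of 12 core genes, 2 of 5 ATPase genes, 2 of 9 non-ATPase genes, 1 of 6 assembly genes and 1 of 5 activator genes with a window held it, against 41.1% of all genes. It is in capitals in the window of Psma2 (chr13:14612992-14613291, plus strand), the alpha subunit with the largest rise.
Psma2: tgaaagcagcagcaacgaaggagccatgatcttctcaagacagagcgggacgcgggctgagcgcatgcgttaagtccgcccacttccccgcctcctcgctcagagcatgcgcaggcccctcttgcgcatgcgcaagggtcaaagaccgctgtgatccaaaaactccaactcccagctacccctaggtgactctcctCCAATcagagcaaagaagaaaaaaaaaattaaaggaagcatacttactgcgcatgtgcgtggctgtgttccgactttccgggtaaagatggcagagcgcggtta

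The letters CCGGAAG, a core to which ETS family factors are known to bind, were in 15 of 40 member windows (37.5%, of 14 genes), against 8.86% of all windows. They were found in 1 of 12 core genes with a window, 3 of 5 ATPase genes, 6 of 9 non-ATPase genes, 2 of 6 assembly genes and 2 of 5 activator genes, against 9.93% of all genes. The member windows had a median GC content of 58.2%, against 52.7% in all windows, and the shares were not matched on it. The match is in capitals in the windows of Psmd13 (chr7:140882144-140882443, plus strand) and Psme3 (chr11:101315963-101316262, plus strand, with a second match read on the opposite strand), the only member called lower.
Psmd13: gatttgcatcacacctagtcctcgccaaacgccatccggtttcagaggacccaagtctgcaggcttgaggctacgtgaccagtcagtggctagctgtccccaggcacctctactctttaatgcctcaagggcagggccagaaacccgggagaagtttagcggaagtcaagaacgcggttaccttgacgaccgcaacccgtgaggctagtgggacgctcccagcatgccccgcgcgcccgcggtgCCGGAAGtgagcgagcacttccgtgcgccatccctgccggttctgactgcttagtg
Psme3: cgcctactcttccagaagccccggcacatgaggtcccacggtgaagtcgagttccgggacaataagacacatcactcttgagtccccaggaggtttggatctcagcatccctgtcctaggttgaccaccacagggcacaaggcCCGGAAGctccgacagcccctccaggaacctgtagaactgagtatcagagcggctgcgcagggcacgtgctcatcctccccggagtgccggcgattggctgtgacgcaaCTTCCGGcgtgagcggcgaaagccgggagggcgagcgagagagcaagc
Each motif was counted on its own, whether or not a match overlapped another motif. A match describes these letters and is not a measured binding site.

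Gated libraries were compared on log2(RPKM + 1), where RPKM is reads per kb of transcript scaled for library depth, with limma across all 10619 genes that reached 1 RPKM in at least 3 of the 7 libraries. Calls were made where the p adjusted by Benjamini-Hochberg was under 0.05. By that rule 15.6% of all tested genes were higher in FSC-A High and 11.7% were lower, so that 28 of 43 members higher stands against a background of 15.6%. Their median log2 difference was 0.78, against -0.04 for all tested genes, and 14 of the called members were higher by more than 2-fold. The libraries of the groups did not overlap in 34 members with FSC-A High above and in 1 with FSC-A Low above, against 18.9% and 16.0% of all tested genes. Psmb11 and Psme4 did not pass the filter on low values and were not tested. These are bulk measurements relative to the RNA in each library, in which fewer cells of a type and less RNA per cell cannot be told apart.

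Summed over all 45 members, the FSC-A High libraries held 6521, 7691, 7136 and 7359 RPKM and the FSC-A Low libraries 3980, 4573 and 4305 RPKM. Every FSC-A High library lay above every FSC-A Low library. As a share of all gene RPKM, the members took 1.69% ± 0.0791 (SD, n = 4) in FSC-A High and 1.25% ± 0.0579 (SD, n = 3) in FSC-A Low. The order of the members' levels was alike in both groups, with a Spearman's rho of 0.888 between the group means over 45 genes, which come from the same libraries.

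**Figure D1:**
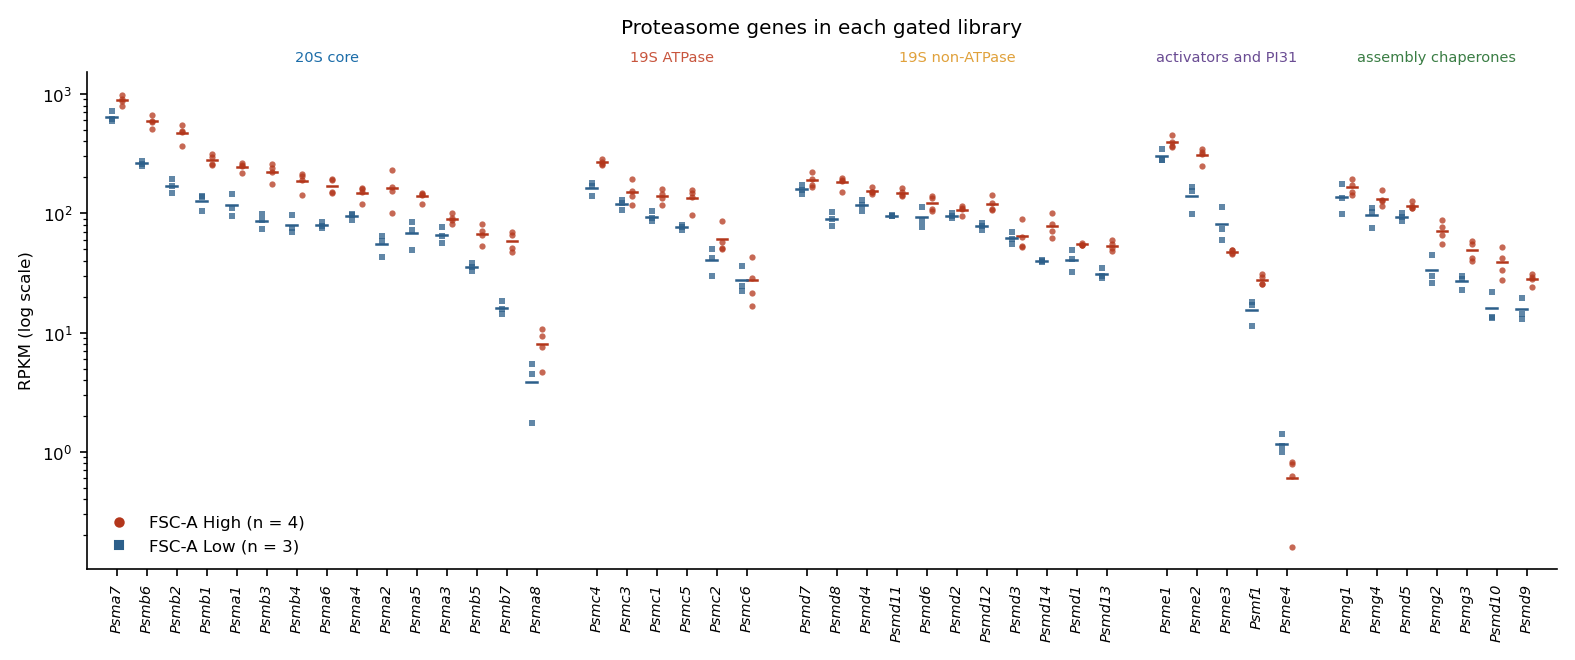
Level of each proteasome gene in each gated library (RPKM, log axis), by class, with red circles for the 4 FSC-A High libraries, blue squares for the 3 FSC-A Low libraries and bars at the group means. Psmb11, at 0 in every library, is not drawn; the groups separate in most core genes, from Psma7 at the top to Psmb7 near the bottom, and Psme3 is the tested member whose FSC-A Low libraries all lie above FSC-A High.

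The 20S core held the largest differences. Of its 15 tested genes, 13 were higher, none was lower and 2 did not pass, with log2 differences from 0.46 to 1.78, and 10 of the 13 were higher by more than 2-fold. By comparison, 15.6% of all tested genes were higher. That share was 35.1% from 1000 to 1500 nt, the length band that holds the core median of 1165 nt. In 14 of the 15 the groups did not overlap, with FSC-A High above, against 18.9% of all tested genes. Levels within the core spanned a range of 125-fold in the mean over the 7 libraries, from Psma7 to Psma8, and kept nearly the same order in both groups (Spearman's rho 0.956 over 16 genes).

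All 3 catalytic genes were higher in FSC-A High. Psmb7, which encodes the subunit with trypsin-like activity, had 47.3, 50.9, 65.2 and 70.1 RPKM in the FSC-A High libraries and 14.2, 18.2 and 15.8 RPKM in the FSC-A Low libraries. The lowest FSC-A High library lay well above the highest FSC-A Low library, and the log2 difference of 1.78 (SE 0.20, limma adjusted p = 6.32e-05) was the largest of any member. Psmb6, the caspase-like subunit, had 511, 671, 581 and 597 RPKM against 276, 248 and 260.2 RPKM. Its groups were as clearly apart at a much higher level, and differed by 1.17 on the log2 scale (SE 0.12, limma adjusted p = 3.94e-05). Psmb5, the chymotrypsin-like subunit and the main target of proteasome inhibitor drugs, had 52.9, 65.4, 81.1 and 71.3 RPKM against 32.9, 35.5 and 38.7 RPKM. It did not overlap either and differed by 0.89 (SE 0.18, limma adjusted p = 0.00313). Exons of Psmb7 share 405 of 3421 bases with Nek6 on the opposite strand, and the counting is not stated to use strand, so reads from there cannot be told apart.

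Among the structural core genes, Psma2 and Psmb2 had the next largest rises. Psma2, an alpha ring subunit, had 100.8, 167, 153 and 232 RPKM against 42.9, 58.7 and 64.9 RPKM. The FSC-A High libraries differed more among themselves than in most core genes, yet all lay above FSC-A Low, and the difference was 1.50 (SE 0.24, limma adjusted p = 0.000710). Psmb2, a beta subunit with no proteolytic site, had 367, 488, 481 and 552 RPKM against 168, 149 and 193 RPKM. Its lowest FSC-A High library lay well above its highest FSC-A Low library, and its log2 difference was 1.46 (SE 0.15, limma adjusted p = 3.96e-05).

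The other beta subunits without a proteolytic site were higher as well, Psmb3 at 224 against 86.7 RPKM (log2 difference 1.35), Psmb4 at 187 against 80.2 RPKM (1.21) and Psmb1 at 282 against 127 RPKM (1.15). Among alpha subunits, Psma1 stood at 246 against 117 RPKM (1.08), Psma6 at 171 against 79.5 RPKM (1.08) and Psma5 at 139.5 against 68.7 RPKM (1.04). Smaller rises were called in Psma4, at 148 against 94.2 RPKM (0.64), and in Psma7, at 893 against 644 RPKM (0.47, limma adjusted p = 0.00946). Psma7 was the member with the highest level in both groups, and had the smallest difference among the called core genes. Psma3, at 90.2 against 65.8 RPKM, had a log2 difference of 0.46 with an adjusted p of 0.0511 and was not called.

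The tissue-restricted core genes were low or undetected. Psma8, the germ cell counterpart of Psma7, had 10.7, 4.71, 9.39 and 7.53 RPKM in FSC-A High and 1.73, 4.49 and 5.44 RPKM in FSC-A Low. These groups overlapped, and the log2 difference of 0.94 was not called (limma adjusted p = 0.0811). Psmb11, the thymus-specific catalytic subunit, was listed at 0 in all 7 gated libraries and had 0 reads in the 4 WT HSC libraries, which allows up to 0.0971 to 0.141 CPM (reads scaled to the library total) at a limit of 3 reads.

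**Figure D2:**
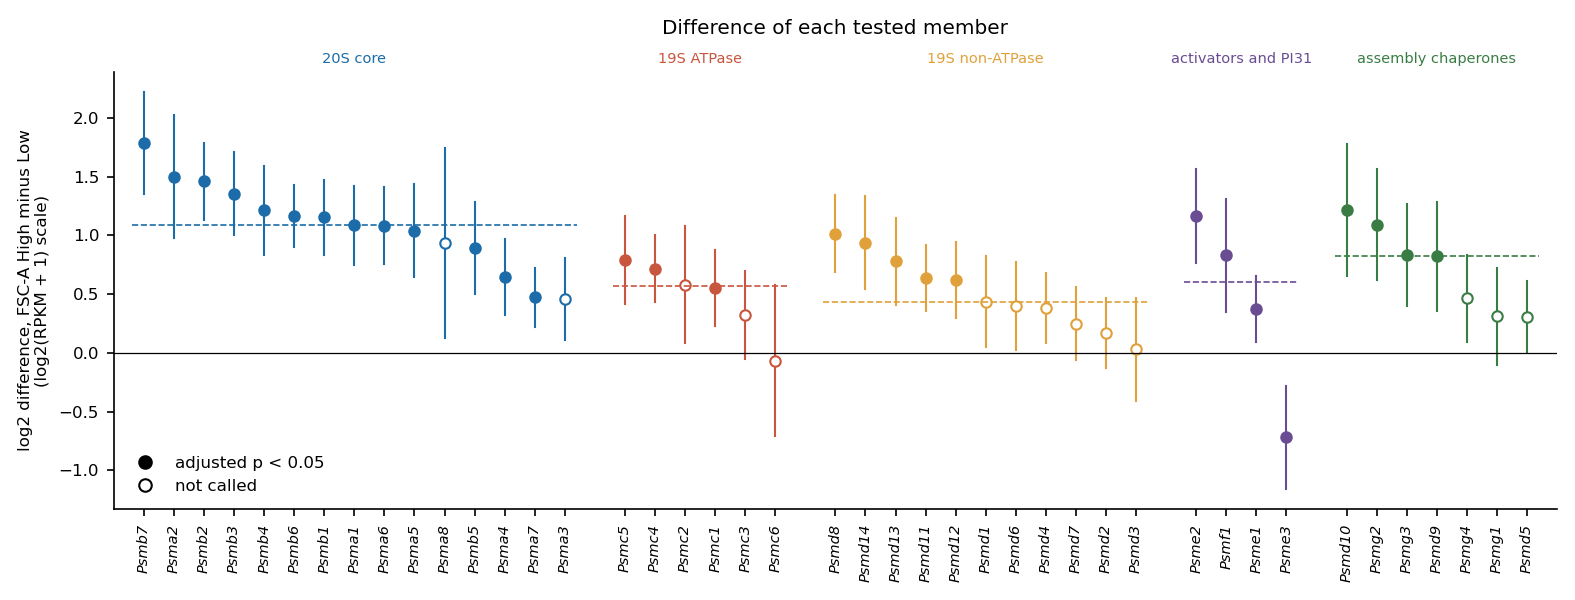
Log2 difference of each tested member between FSC-A High and FSC-A Low (log2(RPKM + 1) scale) with its 95% confidence interval, filled where the limma adjusted p was below 0.05, and a dashed line at each class median. Most core genes lie near or above 1, the ATPases and other 19S genes lie lower, and Psme3 alone is called below 0. Of the called members, Psma7 and Psme1 change sign once a trend over length and GC, or over level, is taken out. Some members that were not called also change sign then.

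The ATPase ring of the 19S particle differed less than the core. Of its 6 genes, 3 were higher, against 15.6% of all tested genes, and 3 did not pass, at a median log2 difference of 0.57. Psmc5 had 97.7, 156, 138 and 148 RPKM in FSC-A High and 80.2, 76.9 and 72.1 RPKM in FSC-A Low, with no overlap, and differed by 0.79 on the log2 scale (SE 0.17, limma adjusted p = 0.00481). Psmc4, the most abundant ATPase transcript, had 257, 269.8, 285 and 255 RPKM against 139, 180.4 and 169 RPKM, also without overlap, and differed by 0.72 (SE 0.13, limma adjusted p = 0.00160). Psmc1 had 118, 159, 133 and 145 RPKM against 91.1, 103.9 and 86.3 RPKM. Its FSC-A High libraries began just above the highest FSC-A Low library, and its log2 difference of 0.56 (limma adjusted p = 0.0153) became 0.50 with an adjusted p of 0.0569 without FSC-A Low replicate 3.

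The other ATPase genes were not called. Psmc2 stood at 61.4 against 40.6 RPKM, a log2 difference of 0.58 with an adjusted p of 0.0807, and Psmc3 at 151 against 119 RPKM, a difference of 0.32. Psmc6 had 27.5 ± 11.7 RPKM (SD, n = 4) against 27.7 ± 7.65 RPKM (SD, n = 3), with a log2 difference of -0.07 and a 95% confidence interval from -0.71 to 0.58. It was the lowest ATPase transcript and the one whose libraries varied most.

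Among the 11 non-ATPase subunits of the 19S particle, 5 were higher, against 15.6% of all tested genes. None was lower and 6 did not pass, with log2 differences from 0.03 to 1.01. The 3 with the largest rises all encode subunits of the lid, the part of the particle that removes ubiquitin chains. Psmd8 had 186, 199, 191 and 151 RPKM in FSC-A High and 89.0, 101.6 and 78.1 RPKM in FSC-A Low. No library overlapped, and the log2 difference of 1.01 (SE 0.15, limma adjusted p = 0.000411) was the only one above 1 among the 19S genes. Psmd14, the deubiquitinase of the lid, had 70.6, 61.8, 80.7 and 99.9 RPKM against 39.8, 39.0 and 40.4 RPKM. The FSC-A Low libraries were almost equal and all lay below the lowest FSC-A High library, and the difference was 0.94 (SE 0.18, limma adjusted p = 0.00240). Psmd13 had 48.2, 55.1, 51.5 and 60.03 RPKM against 29.6, 28.5 and 34.5 RPKM, with no overlap, and differed by 0.78 (limma adjusted p = 0.00498). Its exons share 342 of 3377 bases with Sirt3 on the opposite strand.

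The lid subunits Psmd11 and Psmd12 were higher too, at 149 against 95.3 RPKM (0.64) and at 120.1 against 77.5 RPKM (0.62). The ubiquitin receptors of the particle were not called. Psmd4 had 144, 167, 151 and 151 RPKM against 118, 130.2 and 105 RPKM, without overlap, and a log2 difference of 0.38 at an adjusted p of 0.0539. Psmd2, which is also a scaffold of the base, had 114, 109.5, 95.5 and 110.1 RPKM against 99.9, 95.1 and 90.6 RPKM. Those groups overlapped, and the log2 difference was 0.17 with a 95% confidence interval from -0.13 to 0.47. The remaining 4 were Psmd1, the other large scaffold, at 54.9 against 40.9 RPKM (0.44), Psmd6 at 121 against 92.4 RPKM (0.40), Psmd7, the partner of Psmd14, at 189.8 against 159 RPKM (0.25), and Psmd3 at 64.6 against 62.1 RPKM (0.03).

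Relative to one another, core and 19S transcripts were thus in different proportion in the gated groups. The ratio of summed core RPKM to summed 19S RPKM was 1.72, 1.89, 1.82 and 1.86 in FSC-A High and 1.26, 1.30 and 1.48 in FSC-A Low, and the groups did not overlap. WT HSC libraries, on CPM per kb and with transcripts summarised in another way, had ratios from 1.64 to 2.25, which are not compared with the gated ones. The ratio is given as a description, since its parts are the genes described above. Core transcripts were shorter, with a median of 1165 nt against 1614 nt for the ATPases and 1904 nt for the other 19S genes. With a trend over length and GC taken out, the median log2 differences were 0.55, 0.28 and 0.33. The part of length in the ratio was not tested.

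The activators split. The genes of the interferon-inducible 11S activator, Psme1 and Psme2, were both called higher but by different amounts. Psme2 had 247, 349, 329 and 316 RPKM in FSC-A High and 99.4, 155 and 167 RPKM in FSC-A Low, with no overlap, and differed by 1.16 on the log2 scale (SE 0.19, limma adjusted p = 0.000656). A near-identical gene copy, Psme2b, may share reads with Psme2, which makes its level uncertain. Psme1 had 392, 452, 366 and 362 RPKM against 282, 347 and 280.4 RPKM. Its groups came close to overlapping, and its log2 difference of 0.38 (limma adjusted p = 0.0480) was not called in 5 of the 7 fits that left out 1 library, with adjusted p from 0.0711 to 0.153 there (without FSC-A High replicates 1, 2 or 3 or FSC-A Low replicates 1 or 3). The ratio of Psme2 to Psme1 lay between 0.630 and 0.898 in FSC-A High and between 0.353 and 0.596 in FSC-A Low, though the proteins assemble into 1 mixed ring.

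Psme3, which encodes the nuclear activator that forms a ring of its own, was the only member called lower. It had 48.9, 46.2, 49.7 and 45.8 RPKM in FSC-A High and 73.7, 59.4 and 112.8 RPKM in FSC-A Low. The FSC-A High libraries were nearly equal, all FSC-A Low libraries lay above them, and FSC-A Low replicate 3 was far higher than its group. The log2 difference was -0.72 (SE 0.20, limma adjusted p = 0.0195). Without FSC-A Low replicate 3 it was -0.47 with an adjusted p of 0.0922, and with no filter on low values the adjusted p was 0.0693. The ratio of Psme3 to Psme1 was 0.102 to 0.136 in FSC-A High and 0.171 to 0.402 in FSC-A Low. In WT HSC the ratio was 0.0649 to 0.113 on CPM per kb. Transcripts were summarised in another way there, so that ratio is not compared with the gated ones.

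Psme4, which encodes a large single-chain activator, was low at 0.785, 0.161, 0.630 and 0.823 RPKM in FSC-A High and 1.40, 1.12 and 1.00 RPKM in FSC-A Low. The FSC-A Low libraries were all higher, but the gene was below the filter and carries no test. Psmf1, which encodes PI31, a regulator first described as an inhibitor of the core, had 29.5, 25.6, 25.4 and 30.9 RPKM against 18.2, 11.3 and 16.9 RPKM. Its groups did not overlap, and its log2 difference was 0.83 (SE 0.22, limma adjusted p = 0.0146). Without FSC-A Low replicate 2 the difference was 0.63 with an adjusted p of 0.0605.

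Of the 7 assembly chaperones, 4 were higher, against 15.6% of all tested genes and 35.1% of those from 1000 to 1500 nt. That length band holds the class median of 1059 nt. None of the 7 was lower and 3 did not pass, at a median log2 difference of 0.82. Psmd10, which encodes gankyrin, a chaperone of the 19S base also known for binding cell cycle proteins, had 33.8, 27.4, 41.9 and 52.5 RPKM in FSC-A High and 13.4, 21.9 and 13.2 RPKM in FSC-A Low. It varied widely within both groups without overlap, and differed by 1.22 (SE 0.26, limma adjusted p = 0.00414). Psmg2, which helps build the alpha ring, had 55.1, 66.3, 77.0 and 88.5 RPKM against 30.0, 26.1 and 44.3 RPKM, with no overlap and a log2 difference of 1.09 (limma adjusted p = 0.00285). Psmg1, its partner in a dimer, stood at 166 against 136 RPKM with overlapping libraries and a log2 difference of 0.31 that was not called. Psmg3, of the other chaperone dimer of the alpha ring, had 58.7, 55.1, 42.3 and 40.1 RPKM against 29.6, 28.4 and 22.7 RPKM, with a log2 difference of 0.83 (limma adjusted p = 0.00818), and its partner Psmg4 stood at 132 against 96.2 RPKM, a difference of 0.47 with an adjusted p of 0.0606. Exons of Psmg3 share 280 of 2893 bases with Gm26938 on the same strand, so reads from there cannot be told apart.

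Of the remaining base chaperones, Psmd9 was higher at 28.2 against 15.7 RPKM (0.82, limma adjusted p = 0.0130), and Psmd5 was not called at 116 against 93.1 RPKM (0.31). Psmd9 shares 1849 of 7248 exon bases with a noncoding gene on the opposite strand, so its level is uncertain.

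Short transcripts were higher in FSC-A High across the whole data set, which touches every value above. Spearman's rho between transcript length and the log2 difference was -0.42 over 10460 genes and -0.43 over the 43 members, both across genes of the same libraries. The core had a median transcript length of 1165 nt, the assembly chaperones 1059 nt, the ATPases 1614 nt, the activators 1888 nt and the non-ATPase subunits 1904 nt. Set beside genes of like length, the members were above the gene median in each of 5 length bands. Up to 1000 nt the 8 members had a median of 1.03 against 0.55 for 1190 genes, and from 1000 to 1500 nt the 14 members had 0.92 against 0.44. From 1500 to 2000 nt the medians were 0.70 and 0.19, from 2000 to 3000 nt 0.31 and -0.07, and in the 3 members over 3000 nt 0.44 and -0.35. The share of members called higher was 7 of 8 in the shortest band, where 41.8% of all genes were called higher.

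**Figure D3:**
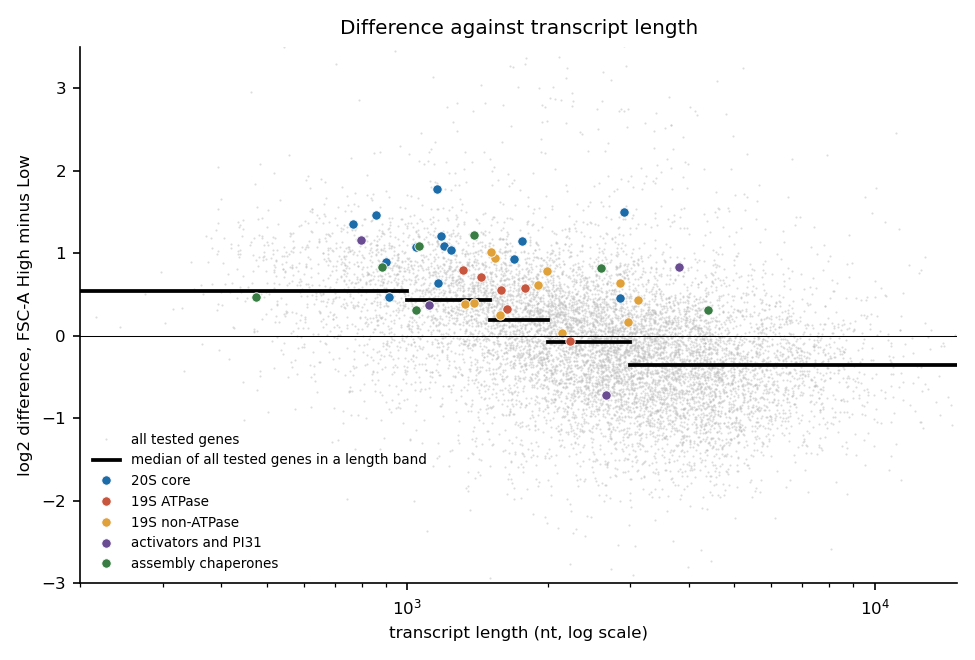
Log2 difference against transcript length (nt, log axis) for all tested genes (grey, with those outside the plotted range not shown) and for the members, coloured by class, with black bars at the median of all genes in each length band. The bars fall from 0.55 to -0.35 as length increases, and most members lie above the bar of their band.

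When a spline over length and GC was taken out of each library, 14 of 43 members were called higher and 1 lower, against 9.37% of 10460 genes called higher, and the median of the members was 0.46. The core then had 7 of 15 genes called higher at a median of 0.55, the non-ATPase subunits 4 of 11 at 0.33, the assembly chaperones 2 of 7 at 0.47, the activators 1 of 4 at 0.18, and the ATPases 0 of 6 at 0.28. Psma2 (1.51), Psmb7 (1.25), Psmb1 (0.80), Psmb2 (0.79), Psmb3 (0.68), Psmb4 (0.68) and Psmb6 (0.58) were the core genes that passed. Psmb5, at 0.39 with an adjusted p of 0.213, was not called, so the catalytic genes no longer shared a call. Of the 28 members called higher before, 16 were not called by this fit. Besides Psmb5 they were Psma1, Psma4, Psma5, Psma6, Psma7, Psmc1, Psmc4, Psmc5, Psmd12, Psmd14 (0.46, adjusted p = 0.108), Psme1, Psme2 (0.47, adjusted p = 0.0650), Psmg2 (0.47, adjusted p = 0.197), Psmg3 and Psmd10 (0.66, adjusted p = 0.105). Longer transcripts moved the other way, with Psmf1 at 1.13 (adjusted p = 0.00143), Psmd11 at 0.77, Psmd1 at 0.61 (adjusted p = 0.0209) and Psmd5 at 0.56 (adjusted p = 0.00378), the last pair now called. Psme3 was called lower by this fit as well, at -0.62 with an adjusted p of 0.0492.

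The scale of the libraries bears on the counts too. With each library scaled to its total of gene RPKM, the median of all genes moved from -0.04 to -0.30, 18 members were higher against 9.21% of all tested genes, and the members' median was 0.47. The 10 that were no longer called were Psma4, Psma7, Psmc1, Psmd9, Psmd11, Psmd12, Psmd13, Psme1, Psmf1 and Psmg3. With upper quartile scaling the median of all genes was -0.12. Of the called members none changed sign under another scaling, whereas Psma7 (-0.18) and Psme1 (-0.12) did so once the trend over length and GC was taken out. Psma2, Psmb1, Psmb2, Psmb3, Psmb4, Psmb6, Psmb7 and Psmd8 were called higher in every alternative tried, and all but Psma2 and Psmd8 are beta subunits.

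**Figure D4:**
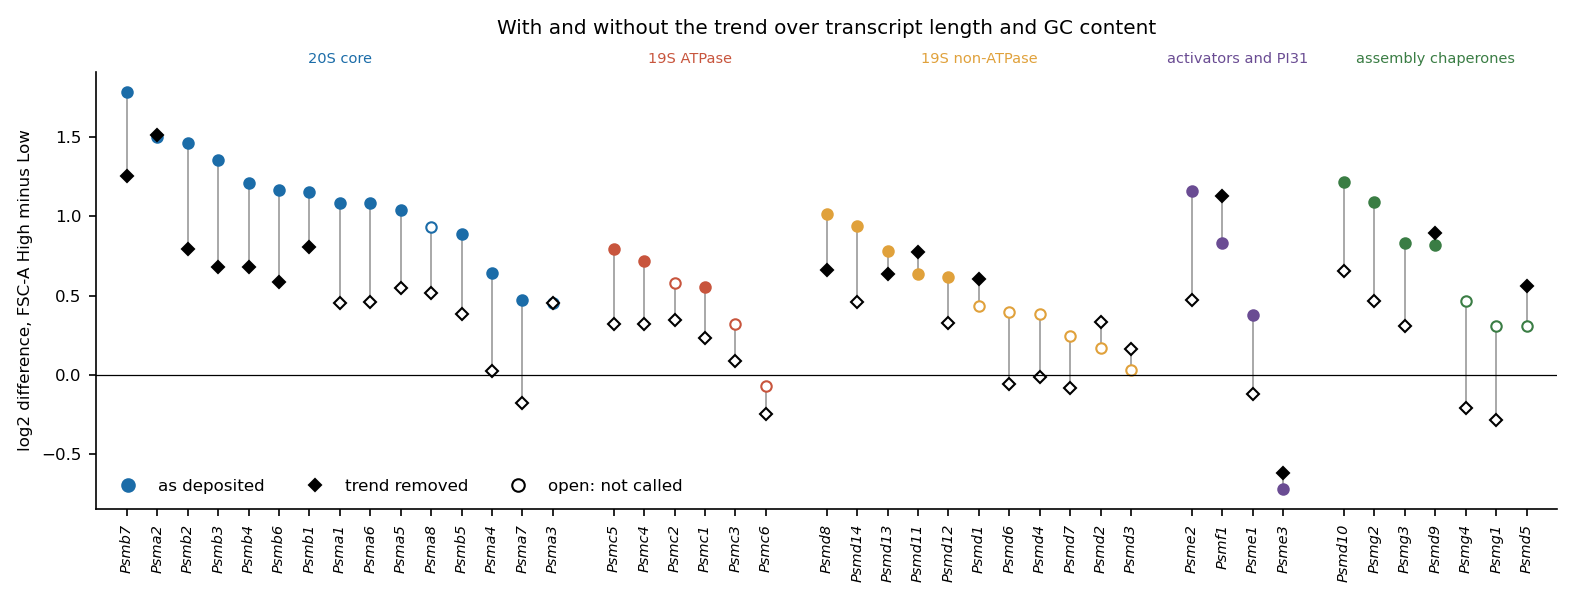
Log2 difference of each tested member as deposited (coloured circles) and after a trend over transcript length and GC was taken out of each library (black diamonds), filled where called at an adjusted p below 0.05. Most core genes move down, Psma2 stays at 1.50 and 1.51, Psmf1 and Psmd5 move up, and Psme3 is below 0 in both. Of the members called as deposited, Psma7 and Psme1 cross 0. Psmg1 (-0.28), Psmg4 (-0.21), Psmd4, Psmd6 and Psmd7, which were not called, cross 0 as well.

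Other genes of the ubiquitin-proteasome pathway moved both ways. A list of 35 genes outside the 45 members held chaperones, ubiquitin genes, shuttling factors and regulators, and also proteasome subunits with other names or left out by the choice of members (Adrm1, Sem1, Psmb8, Psmb9 and Psmb10). Of these 35 genes, 34 were tested, and 8 were higher, 9 lower and 17 not called. The shares over all tested genes were 15.6% higher and 11.7% lower. The list had a median log2 difference of -0.03 and a median transcript length of 2758 nt. The interferon-inducible catalytic subunits Psmb8 and Psmb9 were higher, at 315 ± 39.7 against 139.7 ± 21.9 RPKM (log2 difference 1.17) and at 151 ± 9.84 against 70.04 ± 9.76 RPKM (1.10). Psmb10, the other interferon-inducible catalytic subunit, named after its values were seen, stood at 113 against 93.3 RPKM and was not called (log2 difference 0.27, limma adjusted p = 0.365). Rps27a, which encodes ubiquitin fused to a ribosomal protein, was also higher at 342 against 213 RPKM (0.68), and stood at 0.00 after removal of the length and GC trend. Lower were Akirin2, which guides nuclear import of proteasomes, at 14.4 ± 3.93 against 55.8 ± 37.9 RPKM (-1.73), Ubqln1, a shuttle for ubiquitinated proteins, at 35.6 against 113.5 RPKM (-1.62), Zfand5 at 17.3 against 37.0 RPKM (-1.10), and Ngly1, the glycanase that processes the Nfe2l1 protein, at 34.6 against 60.7 RPKM (-0.80). Chosen after its values were seen, Nfe2l1 itself stood at 5.23 against 7.88 RPKM, a log2 difference of -0.54 that was not called (limma adjusted p = 0.239). Pomp, which encodes the chaperone that matures the beta ring and was likewise chosen afterwards, was higher at 235 against 157 RPKM (0.58). After removal of the length and GC trend Pomp stood at 0.25 and was not called (limma adjusted p = 0.181).

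WT HSC libraries, with 21307178 to 30889443 reads each, were deposited on another scale and are described on their own as CPM per kb of the same transcript. Their summed members took 10980, 12450, 12670 and 9403 CPM, a mean of 11380 ± 1513 (SD, n = 4). WT HSC replicate 4, the lowest, was also the library in which ribosomal precursor RNA (Rn45s) took 15.2% of reads, against 3.06% to 5.26% in the others, and its part in the lower sum was not tested. Psme1 (635 ± 39.8 CPM per kb, SD, n = 4), Psma7 (632 ± 116) and Psmb2 (605 ± 133) had the highest levels, which differed by less than their spread, followed by Psma1 (544 ± 141) and Psmb6 (516 ± 112). Psmf1 (20.6 ± 6.89), Psma8 (15.4 ± 10.8) and Psme4 (10.6 ± 2.30) were the lowest above 0. The order of the members was close to that of the gated means (Spearman's rho 0.867 over 45 genes; the files differ in unit and in how transcripts were summarised). The catalytic genes stood at 516 CPM per kb for Psmb6, 151 ± 33.1 for Psmb7 and 88.0 ± 36.7 for Psmb5, whereas the means over the gated libraries were 449 RPKM for Psmb6, 54.0 RPKM for Psmb5 and 40.3 RPKM for Psmb7, with the last 2 in the other order.

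**Figure D5:**
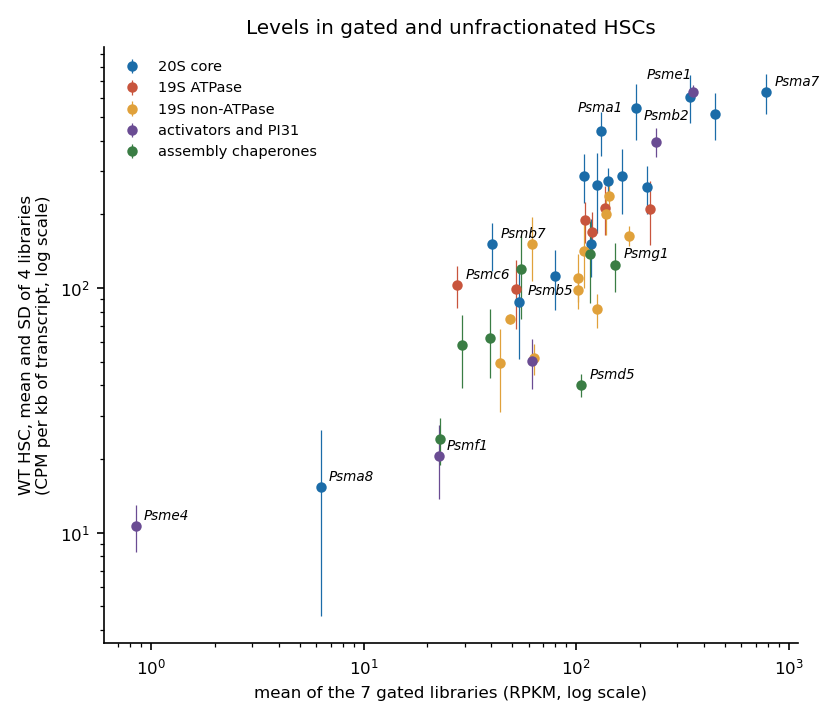
Mean level of each member in the 4 WT HSC libraries (CPM per kb of transcript, log axis, bars give the SD) against its mean over the 7 gated libraries (RPKM, log axis), coloured by class. The points rise together from Psme4 at the lower left to Psma7 at the upper right; Psmb11, at 0 in both, is not drawn.

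Marker genes moved with the gates beside these results. All 6 genes of a cycling list (Mki67, Top2a, Ccnb1, Cdk1, Birc5 and Ube2c) were higher, summing to 884 to 1006 RPKM in FSC-A High libraries and 26.7 to 51.7 RPKM in FSC-A Low libraries. Of 8 HSC markers, 4 were lower and none was higher, with sums of 183 to 278 RPKM against 379.5 to 507 RPKM. Of 7 erythroid genes 5 stayed below 1 RPKM in every gated library and the 1 tested was higher (sums of 85.8 to 219.5 against 55.1 to 81.1 RPKM). None of the tested liver (3), macrophage (2), myeloid (2) or megakaryocyte (3) markers was called, and among 4 lymphoid markers Cd3e and Il7r were at 0. The part of these markers in the proteasome differences was not tested. The gated libraries corresponded to an estimated 65.6 M to 85.4 M reads for FSC-A High, and for FSC-A Low to 69.4 M to 98.2 M, and Spearman's rho across genes was 0.921 to 0.954 within groups and 0.862 to 0.890 between them.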

How the data were processed

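RNA of 11 libraries was analysed, grouped by title into FSC-A High (4), FSC-A Low (3) and WT HSC (4). The deposited gated files hold 33984 values per library, 1 per RefSeq transcript, taken as RPKM since their products with transcript length in kb add up, in each library, to between 1015063 and 1034289; no label or header names the unit, and RPKM and FPKM cannot be told apart. The software that made them is not given in the sources used here. STAR, DESeq2 and the build mm10 stand in the submitters' processing notes without versions or roles. The deposited WT HSC files hold a signal per gene symbol, reads divided by 1 factor per library; 100% of values became whole reads within 0.01, and these were expressed as CPM. No count test was made on them, since they form 1 group.

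Where a gene had several transcripts, the one of highest mean in the 7 gated libraries was used. Lengths and exon overlaps came from GENCODE M21 and promoter windows from RefSeq. The gated groups were set against each other in R 4.3.3 by limma 3.58.1 (lmFit, eBayes with trend, group as the only term) on log2(RPKM + 1), a scale on which changes of low genes come out too small. The step was tested on simulated data. Depth of the gated libraries was estimated from the step between low values; reads without molecular identifiers are not independent molecules, so limits on counts cover counting error only.

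The members, classes and lists were chosen with earlier results of these data known. Values in every library are given for up to 3 called members with the largest rise in each class, called members that fell, the catalytic subunits, Psmd14, Psmd2, Psmd4 and the activators; other members have group means, and the pathway list up to 4 called genes of the smallest p in each direction, of which 1 is not reported here though the counts include it. Psma8 was shown by library beyond that rule. Alternatives were a pseudocount of 0.5 or 5, a filter at 5 RPKM or none, 3 other scalings, the sum of transcripts, removal of a spline (5 degrees of freedom) over length and GC or over level, the replicate number as a block, and each library left out in turn. Python 3.11.15, numpy 2.4.6, pandas 2.3.3, scipy 1.17.1 and matplotlib 3.10.9 were used for tables and plots.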

Additional observations from a re-analysis of the deposited data

Results flagged for a closer look

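A library far from the rest of its group was found for 2 of the 88 pairs of a member and a group of 4 libraries (FSC-A High or WT HSC) that were checked, where chance gives about 1 in 20. FSC-A Low, with 3 libraries, was not checked. Both were in WT HSC replicate 4. Psmd11, a lid subunit of the 19S particle, stood at 177 CPM there against 247 to 257 CPM in the other WT HSC libraries. Psme3, the nuclear activator, stood at 180 CPM (179.6) against 113 to 121 CPM. Rn45s took 15.2% of the reads of that library.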

How the results depend on the processing

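Over the 18 alternatives, which were the settings named under the processing and the 7 fits without 1 library, the count of members called higher was 28 in the fit reported and ranged from 14 to 31. Library total scaling gave 978 genes higher and 2272 lower in all, 18 members higher, 2 of them non-ATPase subunits, 1 activator and 2 assembly chaperones. Removal of the length and GC trend gave 980 genes higher in all, 14 members, 7 core genes, 0 ATPases, 1 activator and 2 assembly chaperones, and removal of the trend over expression level gave 0 ATPases and 3 non-ATPase subunits. Of the called members, Psma7 changed sign when the trend over length and GC was taken out (-0.18) and when that over expression was (-0.23). Psme1 did so too (-0.12 and -0.21), as did some members that were not called. The number of members called lower was 0 with no filter, and 0 to 1 when 1 library was left out (0 without FSC-A Low replicate 3), while 26 to 31 were then higher. The cause was not tested. Correlations of deviations from the group means were -0.03, 0.06 and 0.00013 for libraries with the same replicate number. These values cannot show whether same-numbered libraries shared an animal or a sort, which the labels do not state. The replicate block gave 30 members higher and 1 lower. Over all 10619 tested genes it called fewer genes higher than the 1657 of the fit reported. Each fit without 1 library also called fewer than 1657 genes higher, with 10338 to 10449 genes tested. The filter at 5 RPKM, with 31 members higher, called more than 1657 genes higher out of 7248 tested. Psme4 and Psmb11 lay below the filter on low values and carry no test, and the depth of the gated libraries is an estimate.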
